A study of Homo sapiens with 12 samples.

Results

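The 40 genes described here encode proteins that carry a cell through mitosis: mitotic cyclins and kinases, spindle checkpoint and kinetochore proteins, kinesin motors, cytokinesis factors, chromosome structure proteins and parts of the anaphase-promoting complex. They are 40 of the 58780 genes in release 29 of the GENCODE annotation of hg38, and they were taken by name. The value of a gene is the sum of the reads in the deposited genomic regions, called rows below, that lie in its body on its own strand. The sums were made with and without rows that share at least 1 base with an exon of that strand, called exon-sharing rows. Without those rows, and with only rows that lie in 1 gene, 38 of the 40 genes had a sum and 36 had enough reads to be tested. CDC20 and KIF20A were too low, at 0 to 1.44 and 0.261 to 1.81 CPM (read counts per 1000000 reads, with scaled library sizes). PRC1 and NUSAP1 had reads only in rows that also lie in a longer readthrough gene model.

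The libraries hold RNA that the J2 antibody, which binds double-stranded RNA, pulled down from NCI-H1944, a human lung adenocarcinoma cell line. SCR cells are wild type by their label. IFNAR1sg cells carry an IFNAR1 knockout, made with a guide RNA against a chain of the type I interferon receptor. In the DMSO groups the solvent was given for 48 h, and in the MPS1i groups the MPS1 inhibitor BAY-1217389 at 100 nM for the same 48 h, followed by washout and 24 h of culture. The IFNb groups had recombinant interferon beta at 5 ng/ml in those last 24 h, and the labels do not say sample by sample what they received before. There are 6 groups with 2 libraries each, 12 in all, with 3739443 to 7430687 reads each. The labels do not say whether the 2 libraries of a group came from separate cultures, so p-values measure the spread between these libraries, which may be technical. Nor do they say whether the IFNAR1sg line is 1 clone. Input RNA was not analysed here, so the amount of a transcript and the double-stranded share of it cannot be told apart, and neither can fewer cells in mitosis and less RNA per cell.

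IFNAR1, the targeted gene, differed between the genotypes in 1 kind of row. Its exon-sharing rows held 7.08 to 9.54 CPM in the 6 SCR libraries and 1.34 to 2.73 CPM in the 6 IFNAR1sg libraries, which do not overlap. In rows sharing no exon base, the kind used for most results below, IFNAR1 did not separate the genotypes: it had 0 to 6.57 CPM in SCR and 2.92 to 4.37 CPM in IFNAR1sg, a difference of -0.18 ± 0.38 with DMSO (adjusted p = 0.95). The SCR IFNb pair differed from the other 10 libraries, with reads in 295367 and 296843 rows against 566704 to 935974, and exon-sharing rows took 47.9% and 49.6% of their reads against 33.2% to 39.7%. Of the epithelial markers, 7 of 9 had reads, and KRT8 held 176939 of those reads. Their summed level was 1730 to 4312 CPM, highest in SCR with IFNb (4312 and 3940, against 1850 and 1730 with DMSO), where CDH1 went the other way, from 205 and 176 to 35 and 23 reads. KRT19 and NKX2-1 were at 0 in every library. Of 10 fibroblast markers, 9 had reads, at 16.6 to 20.3 CPM in the 4 MPS1i libraries and 1.90 to 7.30 CPM in the other 8, and COL1A2 was at 0. Of 12 immune cell markers, 9 had reads, at 7.38 to 13.4 CPM in the MPS1i and SCR IFNb libraries and 1.82 to 3.49 CPM elsewhere, and MS4A1 and NKG7 were among those at 0. The part of these markers in the results below was not tested.

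At the entry into mitosis, cyclin B binds CDK1, and this kinase, together with the Polo and Aurora kinases, drives chromosome condensation and spindle assembly. Kinetochores then link each chromosome to spindle microtubules, and the checkpoint kinase MPS1, encoded by TTK, holds back the anaphase-promoting complex until every kinetochore is attached. Cells in which MPS1 is inhibited enter anaphase with unattached chromosomes and missegregate them. Many of these genes are transcribed only late in the cell cycle, under the MuvB complexes and NF-Y. The first bind the CHR element, often TTTGAA, and NF-Y binds CCAAT boxes. In cells that have stopped cycling, a MuvB complex with a p107 or p130 pocket protein, called DREAM, represses them.

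Stretches of 120 bases just before the annotated transcription start (RefSeq, GRCh38.p14) are shown for 9 of the genes, because they come from several of the roles described below and differ in the motifs they hold. Each is given 5′ to 3′ on the gene's strand, ending at the last base before the start, with every CCAAT box and every TTTGAA, on either strand, in capitals. On the other strand the first reads ATTGG. The second then reads TTCAAA. The genomic positions are chr15:59105026-59105145 for CCNB2, chr16:23678769-23678888 for PLK1, chrX:70289984-70290103 for KIF4A, chr10:92593010-92593129 for KIF11, chr15:40160949-40161068 for BUB1B, chr15:69414229-69414348 for KIF23, chr15:90994536-90994655 for PRC1, chr5:69167030-69167149 for CCNB1 and chr17:47189296-47189415 for CDC27. PRC1 and CDC27 are on the minus strand and the other 7 on the plus strand.
CCNB2: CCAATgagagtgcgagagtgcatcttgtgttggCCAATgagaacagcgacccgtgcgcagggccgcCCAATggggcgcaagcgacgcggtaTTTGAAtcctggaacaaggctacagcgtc
PLK1: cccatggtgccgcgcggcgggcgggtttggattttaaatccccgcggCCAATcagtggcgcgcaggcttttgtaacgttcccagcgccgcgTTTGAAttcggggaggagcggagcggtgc
KIF4A: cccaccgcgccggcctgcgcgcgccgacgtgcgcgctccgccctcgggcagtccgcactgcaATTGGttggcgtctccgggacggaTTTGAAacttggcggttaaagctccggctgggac
KIF11: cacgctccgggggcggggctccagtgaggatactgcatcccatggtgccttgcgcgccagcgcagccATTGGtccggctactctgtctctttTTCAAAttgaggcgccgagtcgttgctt
BUB1B: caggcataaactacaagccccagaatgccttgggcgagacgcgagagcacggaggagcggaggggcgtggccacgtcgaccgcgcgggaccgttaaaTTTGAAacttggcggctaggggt
KIF23: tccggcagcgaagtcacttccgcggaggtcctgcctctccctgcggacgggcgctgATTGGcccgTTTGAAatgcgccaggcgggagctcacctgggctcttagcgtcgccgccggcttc
PRC1: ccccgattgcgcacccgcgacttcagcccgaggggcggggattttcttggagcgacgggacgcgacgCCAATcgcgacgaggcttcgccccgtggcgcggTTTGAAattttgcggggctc
CCNB1: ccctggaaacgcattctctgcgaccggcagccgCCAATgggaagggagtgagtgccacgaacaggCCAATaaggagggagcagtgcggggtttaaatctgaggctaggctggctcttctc
CDC27: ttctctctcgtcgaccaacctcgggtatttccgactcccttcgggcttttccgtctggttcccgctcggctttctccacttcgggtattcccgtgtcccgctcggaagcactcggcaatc

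In CCNB2 the TTTGAA begins 29 bases before the start and 3 CCAAT boxes lie further out, at 54, 87 and 120 bases. PLK1 has the same distance of 29 bases, KIF11 28, KIF4A 34, BUB1B 23 and PRC1 20, while in KIF23 it is 55. The printed stretch of CCNB1 holds 2 CCAAT boxes and no TTTGAA, and that of CDC27, a core subunit of the anaphase-promoting complex, holds neither. Promoter sequence from 250 bases before to 50 after the start was at hand for 34 of the 40 genes, not for AURKA, BIRC5, TTK, BUB3, KNL1 and TPX2. Searched on both strands, where matches of the 2 motifs may share a base, TTTGAA was in 26 of the 34 windows (76.5%) against 18.2% of the windows of 27305 genes. CCAAT was in 25 (73.5%) against 39.7%, and both motifs were in 19 (55.9%) against 7.26%. Among the 15 genes with a window whose sums fell with MPS1i in both genotypes (below), 12 held TTTGAA and 10 held CCAAT. Among the other 19 members with a window, 14 held TTTGAA and 15 held CCAAT, so the motifs were common in both sets. A match is a description of these letters, not of binding.

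With MPS1i, most mitosis and spindle genes were lower in both genotypes in rows that share no exon base. In SCR cells 20 of the 36 tested genes fell and 1, CCNA2, rose, where 22.0% of all 14348 tested gene sums fell and 22.2% rose. In IFNAR1sg cells 23 fell and 2, CCNA2 and CENPE, rose, against 19.7% and 27.1% of all gene sums. The median log2 change of the 36 genes was -0.61 in SCR and -0.64 in IFNAR1sg, and that of all gene sums 0.07 and 0.16. The genes that fell in both genotypes numbered 19: CCNB1, CCNB2, AURKA, BIRC5, BUB1B, NUF2, KNL1, KIF11, KIF15, KIF4A, KIF2C, KIF14, TPX2, ASPM, ECT2, KIF23, TOP2A, SMC4 and CDC27. Calls are at an adjusted p under 0.05 in the quasi-likelihood test of edgeR over all gene sums. Without both SCR IFNb libraries the 46 calls of members with MPS1i kept their direction and their call.

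In rows sharing no exon base, no member was called different between the genotypes with DMSO or in its change with MPS1i. With DMSO, 0 of 36 genes differed between IFNAR1sg and SCR, where 0.0348% of all gene sums were lower and 0.0418% higher in IFNAR1sg, and 1 member was at an unadjusted p under 0.05 in edgeR. The change with MPS1i differed between the genotypes for 0 of 36 members, against 1.09% of all gene sums with a lower and 0.335% with a higher change in SCR, and 3 members were at an unadjusted p under 0.05. The DESeq2 Wald test also called 0 in both comparisons. The size of that difference was largest for BIRC5, at -1.14 ± 0.45 (log2, SE, adjusted p = 0.27). A p that misses the threshold does not show that the genotypes respond alike.

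With IFNb, the same kind of rows were lower in SCR cells and not in IFNAR1sg cells. In SCR cells 24 members fell and 2, NDC80 and BUB1, rose, but 39.3% of all gene sums fell and 8.01% rose. The median log2 change was -0.91 for the members and -0.59 for all gene sums. In IFNAR1sg cells 0 of 36 members were called, against 0.655% of all gene sums lower and 0.648% higher, with 2 members at an unadjusted p under 0.05 in edgeR and 0 called by the DESeq2 Wald test. The difference between the genotypes was itself called for 20 members: in SCR cells the change was lower for 19 and higher for NDC80, against 28.9% and 4.31% of all gene sums. The MPS1i and IFNb comparisons of a genotype share their DMSO libraries, so their values are set side by side and not correlated. The SCR IFNb values depend on the scaling: with TMM factors taken from the gene sums the median of all gene sums moved by 0.55 to -0.04, that of the members to -0.35, and 16 members fell and 4 rose. The DESeq2 Wald test, which took its own size factors from the gene sums, called 13 members lower and 4 higher.

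**Figure D1:**
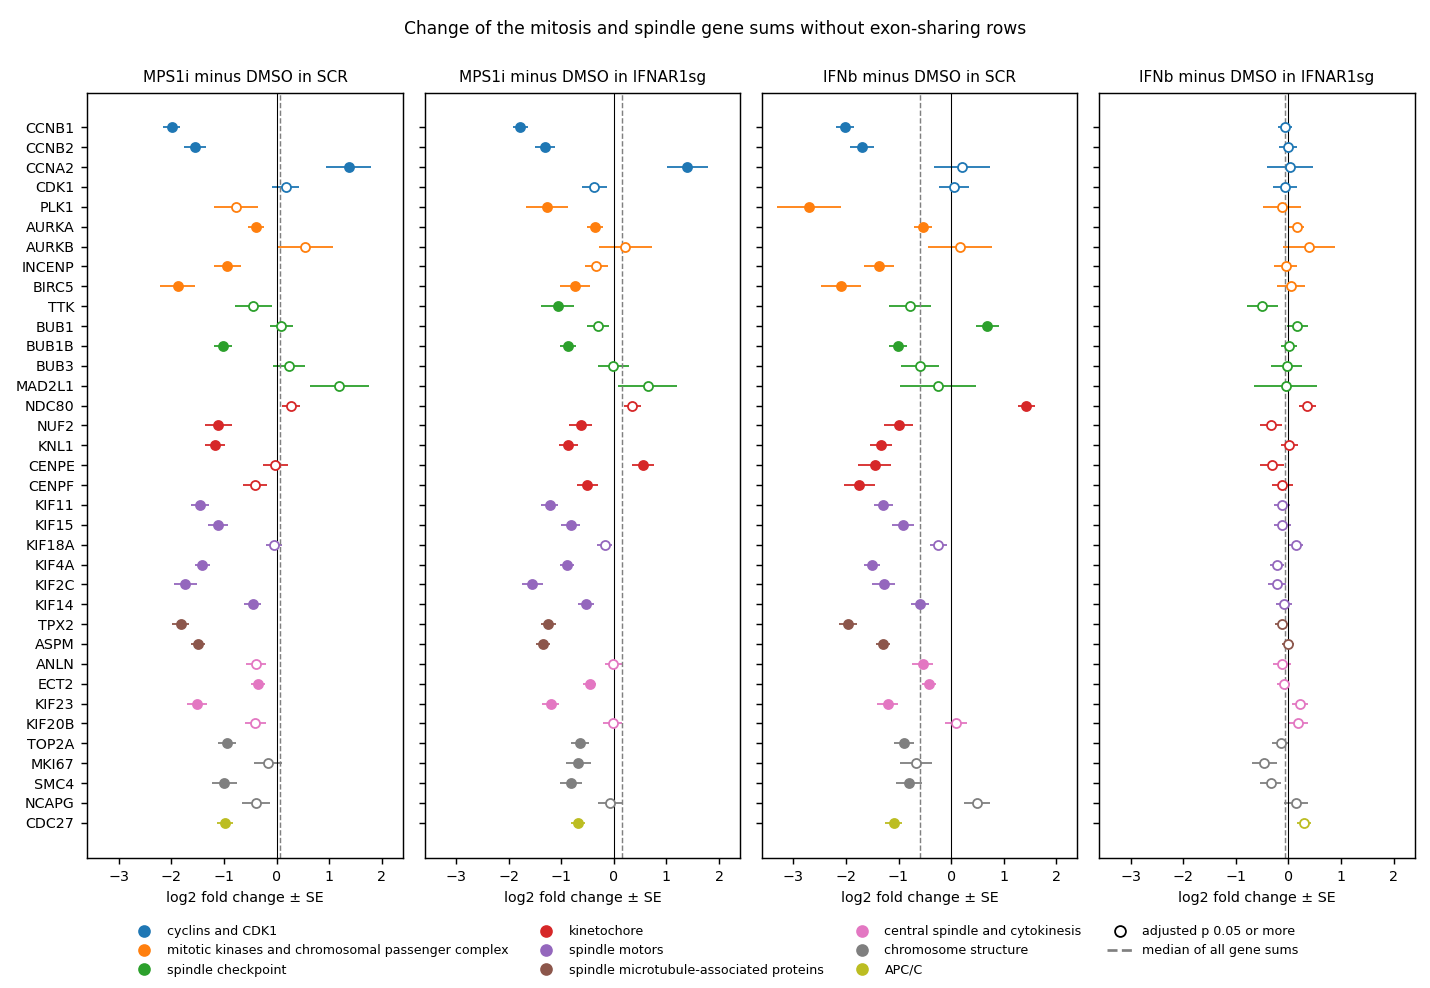
Log2 fold change (x axis, ± SE) of the 36 tested genes, one row of points per gene coloured by role, in 4 comparisons; filled points have an adjusted p under 0.05 and the dashed line is the median of all gene sums. Most points lie left of 0 and of the dashed line with MPS1i in both genotypes; with IFNb in SCR cells the dashed line itself lies at -0.59, and AURKA, ANLN and ECT2 cross 0 there with TMM factors of the gene sums; in the IFNb panel of IFNAR1sg no point is filled.

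Among the cyclins and CDK1, which form the kinase that starts mitosis, both B-type cyclins fell and cyclin A2 rose. CCNB1 had 76.1 and 71.8 CPM in the SCR DMSO libraries, 21.0 and 16.6 with MPS1i and 21.9 and 14.5 with IFNb. IFNAR1sg libraries had 70.6 and 68.4 CPM with DMSO, 17.9 and 22.4 with MPS1i and 70.5 and 63.0 with IFNb. The MPS1i libraries of both genotypes and the SCR IFNb libraries were thus all below every other library. How many of all gene sums separate in this way was not counted. CCNB1 fell in all 3 comparisons: its log2 change with MPS1i was -1.996 ± 0.16 in SCR and -1.78 ± 0.15 in IFNAR1sg (SE, adjusted p = 1.8e-22 and 5.5e-21), and with IFNb in SCR -2.02 ± 0.17 (adjusted p = 2.9e-21). CCNB2, the second B-type cyclin, had 28.2 and 31.5 CPM in SCR with DMSO, 12.1 and 8.63 with MPS1i and 10.7 and 7.69 with IFNb. In IFNAR1sg cells its 3 pairs were 25.1 and 31.4, 11.3 and 11.7, and 30.0 and 26.5 CPM. Its log2 change was -1.55 ± 0.21 and -1.31 ± 0.19 with MPS1i and -1.70 ± 0.23 with IFNb in SCR, each below the threshold.

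CCNA2, which acts in S phase and early mitosis, was low throughout, with 2.59 and 1.58 CPM in SCR with DMSO and 6.83 and 4.40 with MPS1i. In IFNAR1sg cells it had 1.82 and 3.26 CPM with DMSO and 7.95 and 5.91 with MPS1i. It rose by 1.37 ± 0.43 in SCR and 1.39 ± 0.39 in IFNAR1sg (log2, adjusted p = 0.0062 and 0.0018), while with IFNb in SCR its 2 libraries lay apart at 3.96 and 0.923 CPM. The rise rests on few reads: it was not called in SCR without SCR DMSO replicate 2 (1.09) or SCR MPS1i replicate 1 (1.12), nor in IFNAR1sg without IFNAR1sg DMSO replicate 1 (1.05). With exon-sharing rows kept, CCNA2 changed by -0.28 in IFNAR1sg. CDK1, the kinase itself, stayed between 7.38 and 12.9 CPM in all 12 libraries and was called in no comparison.

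Of the mitotic kinases and the chromosomal passenger complex, which corrects faulty attachments, 3 of 5 fell with MPS1i in each genotype and 4 of 5 with IFNb in SCR, against 22.0%, 19.7% and 39.3% of all gene sums. AURKA, 1 of those 4, did not fall with TMM factors of the gene sums. BIRC5, the survivin subunit of that complex, had 13.2 and 9.03 CPM in SCR with DMSO, 3.29 and 2.82 with MPS1i and 3.04 and 2.15 with IFNb. In IFNAR1sg cells it had 10.0 and 9.39, 5.20 and 6.31, and 8.14 and 11.95 CPM. It fell by 1.88 ± 0.33 and 0.74 ± 0.28 with MPS1i (adjusted p = 8.8e-07 and 0.023) and by 2.10 ± 0.38 with IFNb in SCR (adjusted p = 7.5e-07). INCENP, its scaffold, had 14.2 and 15.2 CPM in SCR with DMSO, 9.35 and 6.34 with MPS1i and 6.09 and 5.23 with IFNb. It fell by 0.94 ± 0.25 and 1.37 ± 0.29 (adjusted p = 0.0013 and 2.6e-05), while in IFNAR1sg cells its MPS1i change was -0.33 ± 0.22 (adjusted p = 0.21), with 14.4 and 17.6 CPM with DMSO, 14.6 and 11.01 with MPS1i and 16.9 and 14.0 with IFNb.

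AURKA, the kinase of the spindle poles, moved least of the called kinases. It had 37.9 and 42.6 CPM in SCR with DMSO, 29.6 and 31.2 with MPS1i and 27.7 and 27.7 with IFNb, and in IFNAR1sg 42.2 and 41.5, 34.0 and 31.1, and 48.6 and 44.5 CPM. Its log2 changes were -0.40 ± 0.15, -0.36 ± 0.15 and, with IFNb in SCR, -0.54 ± 0.17, which was 0.02 with TMM factors of the gene sums. PLK1, the Polo kinase of mitotic entry, had unequal SCR DMSO libraries at 7.63 and 2.38 CPM, then 2.28 and 3.52 with MPS1i and 0.609 and 0.923 with IFNb. Its IFNAR1sg pairs, in the same order, were 6.55 and 5.08, 3.32 and 1.48, and 4.14 and 6.53 CPM. It fell by 1.27 ± 0.40 with MPS1i in IFNAR1sg (adjusted p = 0.0064). With IFNb in SCR its log2 change was -2.70 ± 0.62 (adjusted p = 9.2e-05), and its MPS1i change in SCR was -0.77 ± 0.42 (adjusted p = 0.13). AURKB, the kinase of the passenger complex, lay at 1.07 to 4.05 CPM and was called in no comparison.

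Several of these calls rest on 1 library. That of PLK1 with IFNb was lost without SCR DMSO replicate 1 (-1.55) and that in IFNAR1sg without IFNAR1sg MPS1i replicate 2 (-0.79). INCENP lost its MPS1i call without SCR MPS1i replicate 2 (-0.64). BIRC5 lost that in IFNAR1sg without IFNAR1sg DMSO replicate 1 (-0.72) or 2 (-0.79) or IFNAR1sg MPS1i replicate 1 (-0.59). AURKA lost its MPS1i call in SCR without SCR DMSO replicate 2 (-0.30) or SCR MPS1i replicate 1 (-0.30) or 2 (-0.43), and that in IFNAR1sg without any 1 of the 4 libraries compared (-0.31 to -0.40). AURKA also lost its IFNb call without SCR DMSO replicate 2 (-0.42).

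**Figure D2:**
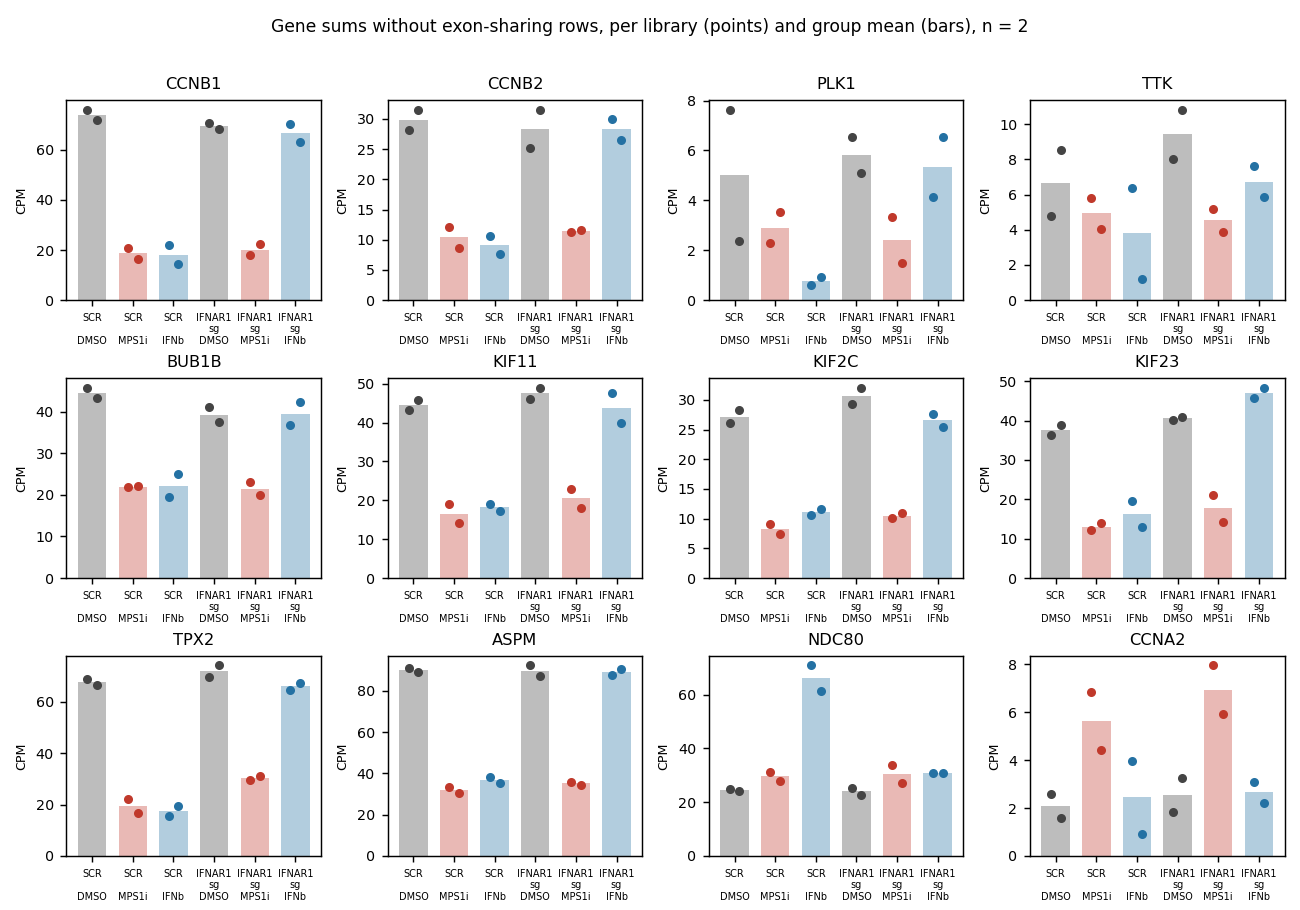
Level of 12 of the genes in CPM (y axis, from 0) in rows sharing no exon base, with 1 point per library and bars at the mean of the 2 libraries of each group. For CCNB1, CCNB2, BUB1B, KIF11, KIF2C, KIF23, TPX2 and ASPM the MPS1i libraries of both genotypes and the SCR IFNb libraries lie below all DMSO and IFNAR1sg IFNb libraries. How many of all gene sums separate in this way was not counted, and 39.3% of them fell with IFNb in SCR. NDC80 is high in the SCR IFNb libraries (70.9 and 61.5 CPM) and CCNA2 in the MPS1i libraries.

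Among the 5 checkpoint genes, 1 fell with MPS1i in SCR and 2 in IFNAR1sg, where 22.0% and 19.7% of all gene sums fell, so the count in SCR is near that of all genes. TTK, which encodes MPS1, the target of the drug, had 4.77 and 8.56 CPM in SCR with DMSO, 5.81 and 4.05 with MPS1i and 6.39 and 1.23 with IFNb. In IFNAR1sg cells it had 8.01 and 10.8, 5.20 and 3.89, and 7.63 and 5.84 CPM. Its MPS1i libraries overlapped those with DMSO in SCR, where the change was -0.45 ± 0.35 (adjusted p = 0.30), and lay below them in IFNAR1sg, where it fell by 1.07 ± 0.32 (adjusted p = 0.0033). That call was lost without IFNAR1sg DMSO replicate 2 (-0.82), and the difference between the genotypes, 0.62 ± 0.48, was not called (adjusted p = 0.73). The drug acts on the MPS1 protein, so these counts do not check its dose.

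BUB1B, which encodes the checkpoint protein BUBR1, had 45.8 and 43.4 CPM in SCR with DMSO, 22.0 and 22.0 with MPS1i and 19.5 and 24.9 with IFNb. For IFNAR1sg the pairs were 41.1 and 37.4, 23.0 and 19.9, and 36.8 and 42.2 CPM. It fell by 1.02 ± 0.16, 0.87 ± 0.16 and 1.01 ± 0.18 in the 3 comparisons. BUB1, the checkpoint kinase that recruits BUBR1, went the other way with IFNb in SCR: from 15.1 and 13.5 CPM it rose to 25.9 and 20.3, by 0.69 ± 0.22 (adjusted p = 0.0053). BUB1 had 15.2 and 15.3 CPM with MPS1i in SCR and 15.5 and 17.9, 15.5 and 11.7, and 15.9 and 22.0 CPM in IFNAR1sg. That rise was not called without SCR IFNb replicate 1 (0.54) or with no TMM factors (0.37). BUB3 and MAD2L1, partners of these proteins, were called in no comparison and lay at 3.38 to 8.46 and 1.17 to 4.04 CPM.

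The kinetochore genes split. KNL1, the scaffold that holds the checkpoint proteins at the kinetochore, had 30.5 and 32.8 CPM in SCR with DMSO, 15.7 and 12.7 with MPS1i and 10.0 and 15.1 with IFNb. In IFNAR1sg cells it had 31.1 and 32.1, 19.8 and 15.0, and 33.9 and 30.2 CPM. It fell by 1.17 ± 0.19, 0.86 ± 0.18 and 1.33 ± 0.21. NUF2, a subunit of the complex that binds microtubules, had 15.3 and 15.4 CPM in SCR with DMSO, 7.58 and 6.70 with MPS1i and 6.999 and 8.31 with IFNb, and in IFNAR1sg 17.3 and 18.1, 12.9 and 10.1, and 12.5 and 15.7 CPM. It fell by 1.11 ± 0.25, 0.63 ± 0.22 and 1.00 ± 0.27, and its call in IFNAR1sg was lost without IFNAR1sg DMSO replicate 2 (-0.60) or IFNAR1sg MPS1i replicate 2 (-0.47).

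NDC80, the partner of NUF2 in that complex, did the opposite with IFNb. It had 24.9 and 24.1 CPM in SCR with DMSO, 31.3 and 28.0 with MPS1i and 70.9 and 61.5 with IFNb, and rose by 1.43 ± 0.16 (adjusted p = 3.0e-14). The IFNAR1sg pairs of the gene were 25.5 and 22.6, 33.8 and 27.2, and 30.8 and 30.7 CPM, and its changes there, as with MPS1i in SCR, were not called. CENPF, a kinetochore protein of late G2 and mitosis, had 15.8 and 16.2 CPM in SCR with DMSO, 12.4 and 11.6 with MPS1i and 5.17 and 4.31 with IFNb. It fell with IFNb by 1.75 ± 0.29 (adjusted p = 1.2e-07), and with MPS1i in IFNAR1sg by 0.50 ± 0.21, from 20.4 and 18.0 to 16.0 and 11.01 CPM. This last call was lost without IFNAR1sg DMSO replicate 1 (-0.44) or 2 (-0.60) or IFNAR1sg MPS1i replicate 2 (-0.26), and CENPF had 15.9 and 19.5 CPM with IFNb there. CENPE, the kinesin that moves chromosomes to the spindle equator, had 11.6 and 12.8 CPM in SCR with DMSO, 12.1 and 11.8 with MPS1i and 3.65 and 5.23 with IFNb, falling by 1.45 ± 0.31 with IFNb (adjusted p = 3.7e-05). In IFNAR1sg cells CENPE rose with MPS1i by 0.55 ± 0.22, from 14.9 and 11.9 to 23.1 and 16.0 CPM, and had 9.57 and 11.8 with IFNb. That rise was not called without IFNAR1sg DMSO replicate 2 (0.38) or IFNAR1sg MPS1i replicate 1 (0.30), with no TMM factors (0.42), or with exon-sharing rows kept, where CENPE changed by -0.06.

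Of the 6 genes grouped as spindle motors, 5 fell with MPS1i in SCR, with MPS1i in IFNAR1sg and with IFNb in SCR, against 22.0%, 19.7% and 39.3% of all gene sums. The kinesins CENPE, KIF23 and KIF20B are described with the kinetochore and the central spindle, and of these KIF23 alone fell in all 3 comparisons. KIF11, the motor that pushes the spindle poles apart, had 43.2 and 45.8 CPM in SCR with DMSO, 19.0 and 14.1 with MPS1i and 19.2 and 17.2 with IFNb. In IFNAR1sg cells it had 46.0 and 49.0, 23.0 and 18.0, and 47.6 and 40.02 CPM. It fell by 1.45 ± 0.17, 1.22 ± 0.16 and 1.29 ± 0.18. KIF2C, which takes microtubules apart at faulty attachments, had 26.0 and 28.4, 9.10 and 7.40, and 10.7 and 11.7 CPM in SCR, and 29.3 and 32.1, 10.1 and 10.9, and 27.7 and 25.4 CPM in IFNAR1sg. Its log2 changes were -1.74 ± 0.22, -1.55 ± 0.19 and -1.28 ± 0.22. KIF4A, a motor on chromosome arms, had 74.4 and 72.9, 28.1 and 27.1, and 25.6 and 26.1 CPM in SCR, and 71.7 and 72.0, 40.2 and 37.7, and 56.0 and 67.5 CPM in IFNAR1sg. It fell by 1.42 ± 0.14, 0.88 ± 0.13 and 1.51 ± 0.15.

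KIF15, which backs up KIF11, had 28.6 and 29.2, 14.9 and 12.2, and 13.7 and 16.9 CPM in SCR with DMSO, MPS1i and IFNb. In IFNAR1sg it had 30.2 and 34.7, 19.1 and 17.7, and 30.4 and 29.7 CPM. It fell by 1.11 ± 0.19, 0.82 ± 0.17 and 0.92 ± 0.20. KIF14, a motor needed late in division, changed less: 40.5 and 39.8, 33.9 and 25.4, and 26.8 and 26.1 CPM in SCR, and 49.1 and 41.2, 30.9 and 31.5, and 39.0 and 45.9 CPM in IFNAR1sg. Its changes were -0.46 ± 0.16, -0.52 ± 0.15 and -0.60 ± 0.17, and with IFNb the DESeq2 Wald test gave 0.02. KIF14 lost its MPS1i call in SCR without SCR DMSO replicate 1 (-0.41) or SCR MPS1i replicate 2 (-0.24), and in IFNAR1sg without IFNAR1sg DMSO replicate 1 (-0.42). KIF18A, which shortens kinetochore microtubules, lay at 35.1 to 52.5 CPM in the 12 libraries and was called in no comparison.

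Among the spindle microtubule-associated proteins, TPX2 and ASPM fell with MPS1i in both genotypes and with IFNb in SCR. In these 3 comparisons 22.0%, 19.7% and 39.3% of all gene sums fell. The treated libraries of both genes lay below those with DMSO, and how many of all gene sums separate in this way was not counted. TPX2, which activates AURKA and seeds spindle microtubules, had 69.0 and 66.5 CPM in SCR with DMSO, 22.2 and 16.6 with MPS1i and 15.5 and 19.4 with IFNb. Its IFNAR1sg pairs, in the same order, were 69.7 and 74.1, 29.6 and 31.0, and 64.5 and 67.4 CPM. It fell by 1.83 ± 0.16 (adjusted p = 2.3e-20), 1.25 ± 0.14 (adjusted p = 6.6e-14) and 1.96 ± 0.17 (adjusted p = 1.8e-20). ASPM, which focuses the spindle poles, had 91.1 and 89.2, 33.4 and 30.7, and 38.0 and 35.4 CPM in SCR, and 92.3 and 87.2, 36.0 and 34.4, and 87.5 and 90.6 CPM in IFNAR1sg. It fell by 1.499 ± 0.13, 1.35 ± 0.13 and 1.30 ± 0.14.

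NUSAP1, which bundles spindle microtubules, and PRC1, which bundles those of the central spindle, were measured from rows that they share with a readthrough model, so their reads cannot be assigned to them alone. Counting such rows, without exon-sharing rows, PRC1 had 24.5 and 18.5 CPM in SCR with DMSO, 11.1 and 8.63 with MPS1i and 7.91 and 9.54 with IFNb, and 22.6 and 26.7, 9.10 and 9.13, and 28.2 and 21.0 CPM in IFNAR1sg. It fell by 1.15 ± 0.22, 1.44 ± 0.21 and 1.31 ± 0.25. NUSAP1 had 44.3 and 52.8, 29.6 and 35.4, and 26.5 and 27.4 CPM in SCR, and 35.7 and 54.0, 36.3 and 34.5, and 37.6 and 42.1 CPM in IFNAR1sg. It fell by 0.56 ± 0.15, 0.36 ± 0.15 and 0.85 ± 0.17.

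Of the other genes of the central spindle and cytokinesis, KIF23, the kinesin that brings the cleavage signal to the midzone, had 36.3 and 38.8 CPM in SCR with DMSO, 12.1 and 13.9 with MPS1i and 19.5 and 12.9 with IFNb. In IFNAR1sg cells it had 40.2 and 40.8, 21.1 and 14.2, and 45.6 and 48.4 CPM, and it fell by 1.51 ± 0.19, 1.20 ± 0.17 and 1.21 ± 0.19. ECT2, the exchange factor that turns on RhoA at the cleavage furrow, had 74.7 and 69.6, 62.9 and 51.3, and 59.6 and 48.3 CPM in SCR, and 67.0 and 75.0, 57.1 and 46.4, and 66.8 and 67.1 CPM in IFNAR1sg. Its changes were small, at -0.35 ± 0.13, -0.46 ± 0.13 and, with IFNb in SCR, -0.42 ± 0.14, which was 0.14 with TMM factors of the gene sums. ECT2 lost its MPS1i call in SCR without SCR DMSO replicate 1 (-0.27) or SCR MPS1i replicate 2 (-0.19) and in IFNAR1sg without IFNAR1sg DMSO replicate 2 (-0.38) or IFNAR1sg MPS1i replicate 2 (-0.32). With IFNb it was not called without SCR DMSO replicate 1 (-0.30) or SCR IFNb replicate 2 (-0.24). ANLN, which ties the furrow's actin to the membrane, passed the test with IFNb in SCR alone, at -0.54 ± 0.20, but this was 0.01 with TMM factors of the gene sums and not called without SCR DMSO replicate 1 (-0.18) or SCR IFNb replicate 1 (-0.46) or 2 (-0.55). ANLN had 29.6 and 20.4, 17.7 and 20.3, and 16.7 and 17.8 CPM in SCR, and 24.6 to 32.7 CPM in IFNAR1sg. KIF20B, another kinesin of the midzone, lay at 13.2 to 26.3 CPM and was called in no comparison.

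TOP2A, the topoisomerase that untangles sister chromatids, had 36.4 and 34.2 CPM in SCR with DMSO, 18.5 and 18.3 with MPS1i and 20.7 and 17.2 with IFNb, and 29.8 and 29.2, 20.4 and 17.3, and 26.2 and 27.0 CPM in IFNAR1sg. It fell by 0.94 ± 0.18, 0.65 ± 0.17 and 0.90 ± 0.19. SMC4, the core subunit of condensin, had 16.6 and 17.6, 9.61 and 7.75, and 9.43 and 10.2 CPM in SCR, and 22.7 and 18.4, 12.9 and 10.3, and 16.3 and 16.1 CPM in IFNAR1sg. It fell by 0.99 ± 0.24, 0.82 ± 0.21 and 0.80 ± 0.25, the last not called without SCR IFNb replicate 1 (-0.72). MKI67, the proliferation marker that coats mitotic chromosomes, fell with MPS1i in IFNAR1sg, from 14.2 and 15.3 to 10.1 and 8.32 CPM (-0.68 ± 0.24), a call lost without IFNAR1sg DMSO replicate 2 (-0.63) or IFNAR1sg MPS1i replicate 2 (-0.55). In SCR cells MKI67 had 8.996 and 10.6 CPM with DMSO, 9.86 and 7.75 with MPS1i and 5.48 and 6.77 with IFNb, and in IFNAR1sg with IFNb 12.3 and 9.17. NCAPG, another condensin subunit, lay at 6.57 to 14.3 CPM and was called in no comparison. CDC27 had 56.0 and 60.8, 32.1 and 27.3, and 24.6 and 30.1 CPM in SCR, and 50.05 and 54.4, 35.3 and 29.9, and 65.7 and 62.3 CPM in IFNAR1sg. It fell by 0.99 ± 0.15, 0.68 ± 0.14 and 1.09 ± 0.16.

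Per kb of the rows that held their reads, the SCR DMSO level differed widely between the genes. It was 11.7 CPM per kb for CCNB1, 2.996 for TOP2A, 2.62 for ASPM, 2.57 for CCNB2 and 2.53 for AURKA, against 0.367 for CENPE and 0.350 for NUF2. The largest fall with MPS1i in SCR was thus measured in the gene with the highest level per kb.

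Rows that share an exon base changed differently in the same genes. Across the 40 genes, 88 exon-sharing rows held 76.2% of all reads, at 2563 reads per kb, and 3492 other rows held the rest, at 76.2 reads per kb. Of the 88 rows, 69 share exactly 1 base with an exon and 14 lie mostly outside the gene body. A read counted in such a row can lie almost wholly in the adjoining exon, and whether it comes from spliced or unspliced RNA cannot be told from the counts. Summed over the genes, rows sharing no exon base held 1156 and 1148 CPM in SCR with DMSO, 673 and 603 with MPS1i and 663 and 626 with IFNb. In IFNAR1sg cells these sums were 1161 and 1196, 782 and 674, and 1147 and 1166 CPM. Exon-sharing rows held 3257 and 3045 CPM in SCR with DMSO, 2995 and 2584 with MPS1i and 4950 and 4615 with IFNb, and 3040 and 2875, 2277 and 1984, and 3599 and 3305 CPM in IFNAR1sg. The first kind of row was thus lower with IFNb in SCR by nearly the margin seen with MPS1i, whereas the second was higher in those 2 libraries than in any other. Over all genes, the first kind held 37.8% and 35.6% of the reads in SCR with DMSO, 28.0% and 27.8% with MPS1i and 19.4% and 19.6% with IFNb. Exon-sharing rows of all genes held 35.3% and 33.5%, 39.7% and 37.7%, and 49.6% and 47.9%. With IFNb in SCR each kind of row thus moved over all genes as it did in the members, the first down and the second up.

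**Figure D3:**
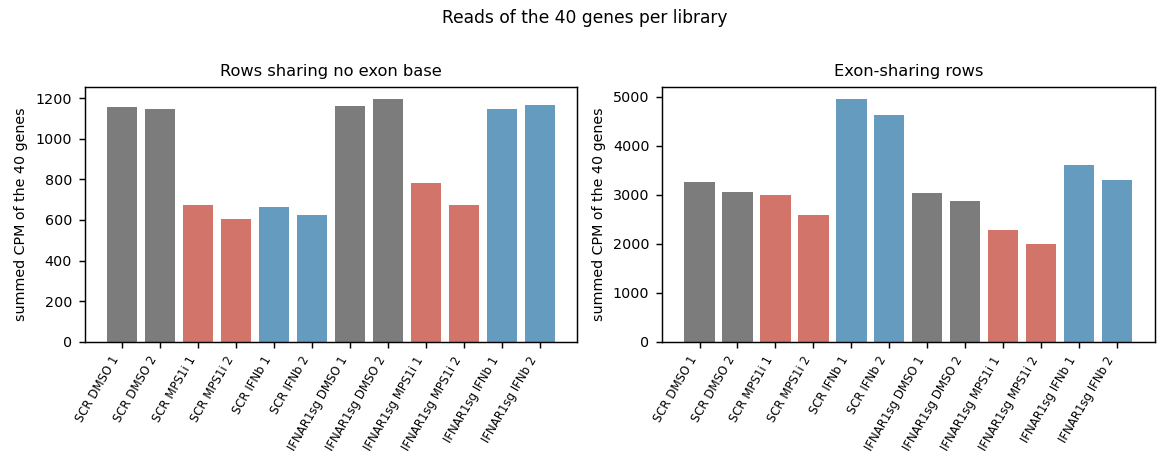
Summed CPM (y axis, from 0) of the 40 genes in each of the 12 libraries, for rows sharing no exon base and for exon-sharing rows, rows shared with a readthrough model included. In the first kind, the 4 MPS1i and 2 SCR IFNb libraries lie between 603 and 782 CPM and the other 6 between 1147 and 1196; in the second, the SCR IFNb libraries are the highest at 4950 and 4615 CPM.

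In sums of exon-sharing rows alone, 28 of the 40 genes could be tested. With MPS1i in SCR, 3 fell and 0 rose, against 3.12% and 26.8% of the 5672 gene sums of this kind. They were TOP2A (-0.59 ± 0.12, adjusted p = 0.00036), KNL1 (-0.75 ± 0.26, adjusted p = 0.025) and AURKA (-0.31 ± 0.12, adjusted p = 0.049). Leaving out either SCR MPS1i library left 1 call, while there were 9 calls with no TMM factors, 9 with the DESeq2 Wald test and 5 with the replicate number as a block. In IFNAR1sg 15 of the 28 genes fell and 0 rose, against 3.44% and 13.0% of all such sums. The median change of the 28 genes was -0.61 there and that of all sums 0.19, and in SCR these medians were -0.20 and 0.37. TOP2A fell by 1.00 ± 0.12 (adjusted p = 2.4e-07), from 310 and 307 to 168 and 140 CPM. Without IFNAR1sg MPS1i replicate 2 there were 5 calls and without IFNAR1sg DMSO replicate 1 there were 8, so the number depends on these libraries. The difference between the genotypes was called for 0 of the 28 in edgeR, with 8 at an unadjusted p under 0.05 and 0 by the DESeq2 Wald test.

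With IFNb in SCR, exon-sharing rows rose for 17 of the 28 genes and fell for PLK1, against 53.2% and 4.21% of all such sums, so a rise was common to most genes of the table. CDK1 rose by 1.24 ± 0.14 (adjusted p = 2.7e-09), from 108 and 94.1 to 252 and 224 CPM, and ECT2 by 0.92 ± 0.12, from 484 and 462 to 961 and 830 CPM. TPX2 rose by 0.40 ± 0.12, although its other rows fell by 1.96 in the same libraries. PLK1 fell by 2.46 ± 0.89 (adjusted p = 0.018), but from only 2.999 and 2.22 to 0.304 and 0.615 CPM. The DESeq2 Wald test, with its own size factors from the exon-sharing sums, called 1 rise and 3 falls, so scaling and test changed together. In IFNAR1sg 0 of 28 were called, against 0.441% of sums that fell and 3.24% that rose, with 9 members at an unadjusted p under 0.05 in edgeR and 1 called lower by the DESeq2 Wald test. For 7 genes, CCNA2, CDK1, TTK, KIF4A, ECT2, KIF20B and CDC27, the change in SCR was higher than in IFNAR1sg (31.0% of all such sums). CCNA2's exon-sharing reads come almost wholly from a row of 15129 bases at chr4:121801316-121816444 that shares 1 base with the gene's end and lies outside the rest of it, so they may not belong to CCNA2.

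When exon-sharing rows were kept in the sums, 37 of the 40 genes could be tested and the exon-sharing rows dominated. With MPS1i, 19 fell in SCR (15.4% of 15469 gene sums) and 25 in IFNAR1sg (15.0%), and 0 rose. With IFNb in SCR, 13 fell (27.7%) and 12 rose (18.0%). KIF2C then changed by 0.47, AURKA by 0.44, TPX2 by 0.32 and ECT2 by 0.80, where the sums without those rows had fallen.

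The ratio of exon-sharing to other reads was compared gene by gene with limma, for 28 members among 4651 genes that had enough reads of both kinds. With MPS1i in SCR it rose for 10 of the 28 members, near the share of 35.1% of all genes. The median change was 0.47 for members and 0.54 for all. CCNB1 had the largest rise among the members, 1.88 ± 0.20 on the log2 scale (adjusted p = 1.5e-09), and TPX2, KIF23 and KIF2C followed at 1.58 ± 0.19, 1.54 ± 0.24 and 1.40 ± 0.24. In IFNAR1sg the ratio rose for 5 members, KIF2C, CCNB1, KIF23, CDC27 and TPX2, again near the share of all genes (20.3%). It fell for 3, CENPE, CCNA2 and KIF20B (2.69% of all genes). With IFNb in SCR it rose for 23 members (67.8% of all genes), by a median of 1.37 against 1.33 for all genes, so the members moved with the rest. For KIF4A the MPS1i change in the ratio differed between genotypes, at 1.37 ± 0.26 in SCR and -0.22 ± 0.26 in IFNAR1sg, a difference of 1.59 ± 0.37 (adjusted p = 0.040, 0.301% of all genes).

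**Figure D4:**
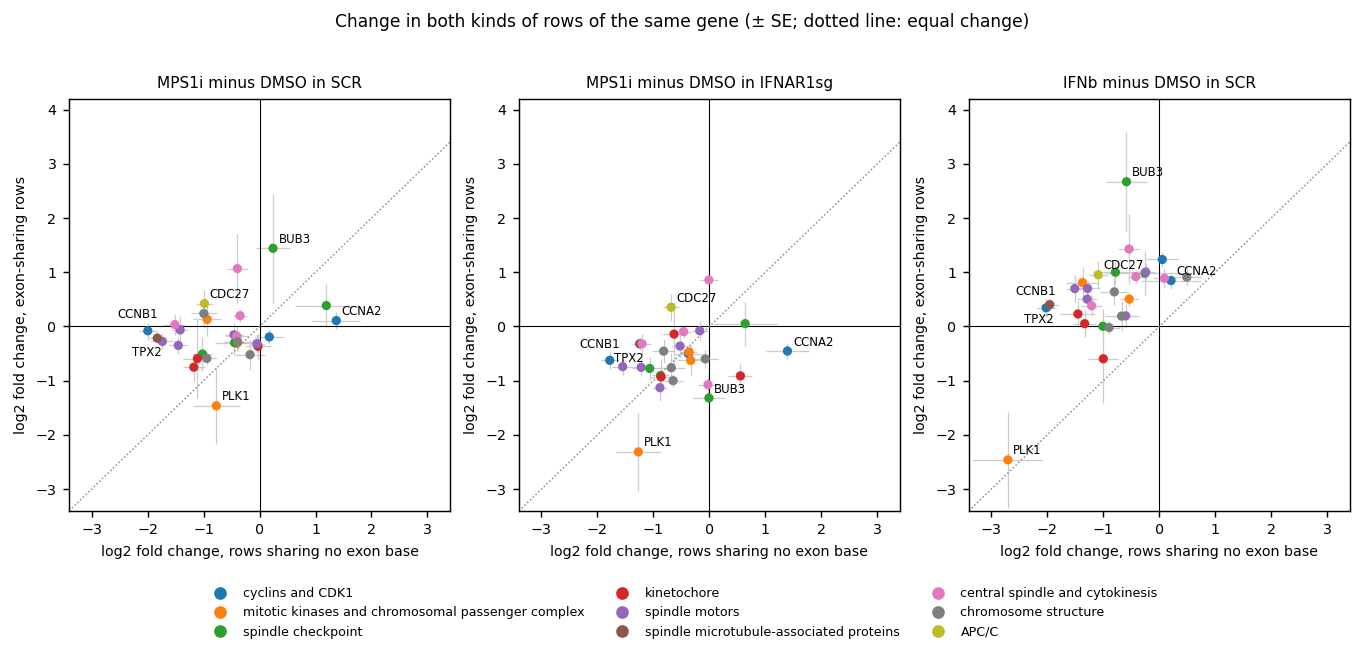
Log2 fold change of the exon-sharing rows (y axis) against that of the other rows (x axis) of the same gene, ± SE, for the genes tested in both, with MPS1i in each genotype and with IFNb in SCR. With MPS1i in SCR many points lie left of 0 and near 0 on the y axis (CCNB1 at -1.996 and -0.08); in IFNAR1sg most lie below 0 on both axes; with IFNb in SCR most lie above 0 on the y axis and left of 0 on the x axis, where the DESeq2 Wald test with its own size factors called 1 member sum of exon-sharing rows higher and 3 lower.

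Single rows were tested too, 274 in member genes among 89111 in all. With MPS1i in SCR 62 member rows fell and 1 rose (8.00% and 9.50% of all rows), in IFNAR1sg 83 fell and 4 rose (7.85% and 9.41%), and with IFNb in SCR 70 fell and 39 rose (18.1% and 15.0%). Of the 214 rows sharing no exon base, 55, 55 and 65 fell in the 3 comparisons, and of the 60 exon-sharing rows 7, 28 and 5 fell and 0, 0 and 29 rose. With IFNb in IFNAR1sg 1 member row rose (0.547% of all rows), an exon-sharing row of AURKA at chr20:56372554-56373408, by 0.54 ± 0.14 (adjusted p = 0.037). The difference in the IFNb change between genotypes was called lower in SCR for 34 member rows and higher for 10 (7.05% and 5.11% of all rows).

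The fall of CCNB1 comes from 1 row. It lies at chr5:69175703-69177050, 1348 bases in what the table's annotation gives as intron 7 of 7, spans AluJo, (AT)n, AluJo and AluSg repeats and held 3187 reads, 90.8% of the gene's reads outside exon-sharing rows. It had 69.7 and 67.3 CPM in SCR with DMSO, 16.9 and 13.9 with MPS1i and 20.4 and 13.5 with IFNb, and 65.7 and 63.6, 13.1 and 17.3, and 65.5 and 58.1 CPM in IFNAR1sg. It fell by 2.16 ± 0.20, 2.08 ± 0.20 and 2.01 ± 0.21 (adjusted p = 4.7e-14, 8.8e-14 and 8.9e-13). The exon-sharing row just before it, chr5:69175537-69175697, held 3858 reads, with 52.1 and 52.3 CPM in SCR with DMSO and 57.4 and 42.8 with MPS1i. That neighbour changed by -0.07 ± 0.18 with MPS1i in SCR (adjusted p = 0.83) and 0.33 ± 0.18 with IFNb (adjusted p = 0.14), and fell by 0.64 ± 0.18 with MPS1i in IFNAR1sg (adjusted p = 0.0072).

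In ASPM, 3 adjoining rows of intron 17, from chr1:197096218 to 197100430, each fell with MPS1i in both genotypes and with IFNb in SCR, by 1.44 to 2.23. The widest of them, chr1:197097505-197099216, went from 26.2 and 21.9 to 7.08 and 5.11 CPM with MPS1i in SCR (-2.004 ± 0.26) and from 27.5 and 24.6 to 5.20 and 7.52 CPM in IFNAR1sg (-2.02 ± 0.24). In KIF23, a pair of rows in intron 10 that name AluJb and AluY repeats, chr15:69429801-69431613 and chr15:69431626-69432532, fell by 2.28 ± 0.38 and 2.01 ± 0.37 with MPS1i in SCR, while the exon-sharing row chr15:69446157-69446283 changed by 0.00 ± 0.21. In KIF2C, the row chr1:44764060-44766396 in intron 19 went from 7.63 and 8.56 to 2.28 and 1.41 CPM with MPS1i in SCR (-2.17 ± 0.42) and to 0.304 and 1.85 CPM with IFNb (-2.89 ± 0.51).

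TPX2 shows both kinds of row at once. Its exon-sharing row chr20:31783921-31785502 held 54581 reads and had 835 and 811 CPM in SCR with DMSO, 765 and 620 with MPS1i and 1099 and 999 with IFNb. It changed by -0.25 ± 0.12 with MPS1i (adjusted p = 0.14) and rose by 0.35 ± 0.12 with IFNb (adjusted p = 0.021). The row that follows it in the same intron, chr20:31785545-31788258, fell from 6.13 and 9.35 CPM to 3.03 and 2.11 with MPS1i (-1.61 ± 0.37) and to 3.04 and 2.46 with IFNb (-1.47 ± 0.40). Exon-sharing rows of CDC27 differed: chr17:47162382-47163225, which shares 1 exon base, fell by 2.19 ± 0.40 with MPS1i in SCR, 1.41 ± 0.35 in IFNAR1sg and 2.53 ± 0.46 with IFNb, while chr17:47143677-47143883 changed by 0.44 ± 0.28 with MPS1i and rose by 1.04 ± 0.28 with IFNb. The CDC27 row chr17:47156156-47156596, which spans AluSc8 and AluSx1, went from 4.09 and 4.28 CPM to 0.253 and 0.176 with MPS1i in SCR (-4.20 ± 0.72, adjusted p = 7.9e-06) and from 4.73 and 4.17 to 1.44 and 1.48 CPM in IFNAR1sg (-1.59 ± 0.45). PRC1 likewise had an exon-sharing row that fell, chr15:90972750-90974011, by 2.08 ± 0.36, 1.84 ± 0.31 and 2.29 ± 0.40. That of NUSAP1 at chr15:41377304-41377698 changed by -0.08 ± 0.14 in SCR, fell by 0.81 ± 0.14 in IFNAR1sg and rose by 0.90 ± 0.14 with IFNb. In TOP2A a row of 7 bases, chr17:40406578-40406584, held 11643 reads and fell by 0.59 ± 0.14 and 1.01 ± 0.14 with MPS1i in SCR and IFNAR1sg.

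**Figure D5:**
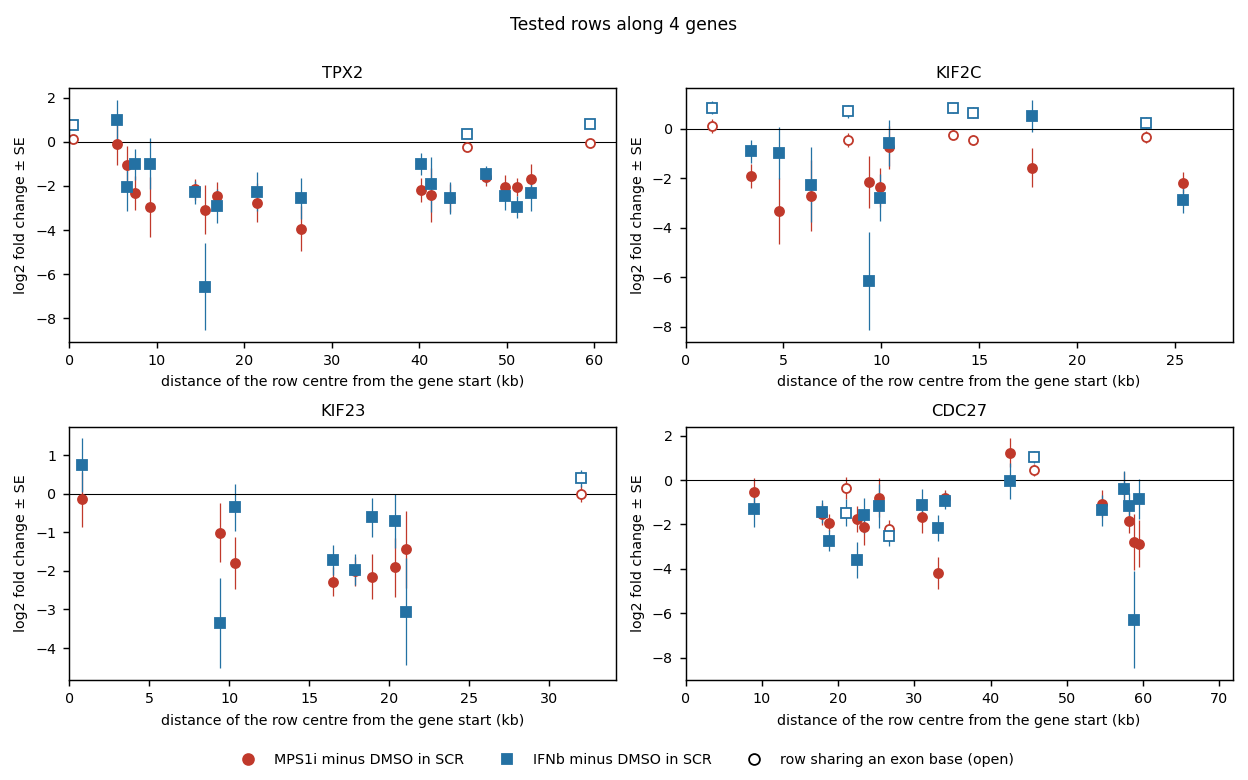
Log2 fold change ± SE (y axis) of each tested row of TPX2, KIF2C, KIF23 and CDC27 against the distance of its centre from the gene start in kb (x axis), with MPS1i (circles) and IFNb (squares) in SCR; open symbols are exon-sharing rows. Most filled symbols lie below 0 along the whole gene and, for TPX2, KIF2C and KIF23, the open symbols lie near or above 0; 2 open rows of CDC27 lie below 0 with both treatments.

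The members that went up rest on few rows. The CCNA2 rise with MPS1i comes mainly from chr4:121817759-121818039, 281 bases annotated at the transcript end, with 56.8% of the reads and 1.91 and 0.634 CPM in SCR with DMSO against 4.04 and 2.82 with MPS1i, and this row was not called by itself (1.36 ± 0.57, adjusted p = 0.085). The NDC80 rise with IFNb in SCR lies in 2 rows of the last intron. At chr18:2613366-2614435, which names L1ME3Cz and AluSc5, the level went from 11.4 and 10.6 to 49.9 and 39.1 CPM (2.01 ± 0.23, adjusted p = 6.9e-11), and at chr18:2614598-2614953 from 4.50 and 3.96 to 13.7 and 12 CPM (1.59 ± 0.34). Its row at the promoter, chr18:2571808-2572974, rose with MPS1i in both genotypes, from 0.273 and 0.158 to 2.28 and 1.59 CPM in SCR (2.997 ± 0.89) and from 0.364 and 1.04 to 4.05 and 1.88 CPM in IFNAR1sg (1.96 ± 0.67).

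Repeat content and place in the gene were compared over the 214 rows sharing no exon base, which come from 37 genes and are not independent. Of all 89111 tested rows, exon-sharing rows included, 8.00% fell with MPS1i in SCR and 7.85% in IFNAR1sg. Those shares were not split by repeat or place, so whether the patterns below are particular to the members was not tested. With MPS1i in SCR, 26 of 69 rows that name an Alu fell, 18 of 63 that name other repeats only and 11 of 82 that name none. Their median changes were closer, at -1.39, -1.09 and -1.07, and in IFNAR1sg 22, 14 and 19 fell, with medians of -1.21, -0.87 and -1.12. Read depth was not matched between these classes. Falls were spread along the genes: 14 of 75 rows in the part nearest the start, 18 of 64 in the middle part and 23 of 75 in the last part fell with MPS1i in SCR, with medians of -1.04, -1.44 and -1.10.

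Reads on the strand opposite a member were summed in the same way, and 29 members could be tested among 10402 such sums. With MPS1i in SCR 2 fell, against 1.12% of all antisense sums. They were KIF4A, from 3.41 and 6.18 to 1.01 and 2.29 CPM (-1.44 ± 0.49, adjusted p = 0.028), and KIF14, from 8.04 and 10.9 to 3.29 and 4.05 CPM (-1.34 ± 0.43, adjusted p = 0.019). In IFNAR1sg 0 were called in edgeR, with 1 at an unadjusted p under 0.05. With IFNb in SCR 5 rose, ECT2, CDK1, BUB3, BIRC5 and TPX2, against 26.7% of all antisense sums, among them ECT2 from 32.0 and 39.6 to 75.8 and 77.2 CPM (1.10 ± 0.23, adjusted p = 0.00031). With IFNb in IFNAR1sg 0 were called in edgeR, with 2 at an unadjusted p under 0.05. The median antisense change with MPS1i in SCR was -0.26 for members and 0.50 for all sums, and with IFNb 0.55 and 0.57.

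Other genes of the cell division pathways, 173 in 10 lists, were summed and tested in the same fit. Of 156 tested without exon-sharing rows, 79 fell and 15 rose with MPS1i in SCR and 72 fell and 10 rose in IFNAR1sg. Treatment with IFNb in SCR gave 88 that fell and 9 that rose. Of all gene sums, 22.0%, 19.7% and 39.3% fell and 22.2%, 27.1% and 8.01% rose in these 3 comparisons. The counts below are to be read against these shares. With IFNb in IFNAR1sg 3 fell and 1 rose. Of 15 genes of condensin and cohesin, the rings that fold chromosomes and hold sisters together, 13 fell with MPS1i in SCR, 10 in IFNAR1sg and 13 with IFNb in SCR. Among them the cohesin subunit STAG1 changed by -1.49 ± 0.11, -0.92 ± 0.10 and -1.78 ± 0.11, and the cohesin regulator PDS5A by -1.25 ± 0.10, -1.04 ± 0.10 and -1.86 ± 0.11.

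Of 21 tested genes of the spindle and centrosome, 13 fell with MPS1i in SCR, 12 in IFNAR1sg and 16 with IFNb in SCR, where 1 rose, with CKAP5, a microtubule polymerase, at -1.25 ± 0.12, -0.70 ± 0.11 and -1.85 ± 0.13. Of 22 further kinetochore and centromere genes 10, 8 and 9 fell and 1 rose in each comparison. The 9 that fell with IFNb are near the share of all gene sums (39.3%). CENPA, the histone that marks centromeres, changed by -0.71 ± 0.10 and -0.61 ± 0.10 with MPS1i. Of 11 further checkpoint genes 6, 6 and 5 fell and 2, 0 and 1 rose, among the former KNTC1, a subunit of the complex that brings dynein to kinetochores (-1.43 ± 0.15, -1.26 ± 0.14 and -1.01 ± 0.15). All 5 further cytokinesis genes were called with MPS1i, 4 lower and 1 higher in each genotype, and the citron kinase gene CIT fell by 1.53 ± 0.14 and 1.15 ± 0.13. CEP55, which marks the site of abscission, rose by 1.17 ± 0.19 in IFNAR1sg. Of 16 further genes of the anaphase-promoting complex and separase 6, 5 and 8 fell and 0, 1 and 1 rose. Of 11 genes of mitotic entry 6, 5 and 5 fell and 0, 0 and 1 rose, with ENSA, an inhibitor of the phosphatase that opposes CDK1, at -1.82 ± 0.11, -1.10 ± 0.10 and -2.82 ± 0.12. ENSA also fell with IFNb in IFNAR1sg, by 0.76 ± 0.10 (adjusted p = 1.3e-09).

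Of 16 tested genes of the DREAM and MuvB complexes and their partners 10, 8 and 10 fell and 1, 0 and 0 rose. RBL1, which encodes the pocket protein p107, changed by -2.05 ± 0.15, -1.75 ± 0.14 and -1.13 ± 0.15, and LIN9, a MuvB subunit, by -1.38 ± 0.16 and -1.38 ± 0.15 with MPS1i. Of 26 DNA replication genes 11, 13 and 10 fell and 2, 1 and 4 rose, and the 10 that fell with IFNb are near the share of all gene sums. Of the 13 tested p53 targets of cell cycle arrest 8 rose and 0 fell with MPS1i in SCR, 6 rose and 1 fell in IFNAR1sg, and 0 rose and 7 fell with IFNb in SCR, where 39.3% of all gene sums fell. The treatments were not tested against each other. MDM2, the ligase that degrades p53, was among those 7 at -0.84 ± 0.10 but changed by 0.77 ± 0.09 with exon-sharing rows kept (adjusted p = 1.7e-09). CDKN1A, the p21 inhibitor of cyclin-dependent kinases, had 3.95 and 3.49 CPM in SCR with DMSO, 20.0 and 20.1 with MPS1i and 5.48 and 7.38 with IFNb, and in IFNAR1sg 4.37 and 3.91, 19.7 and 22.4, and 5.69 and 4.73 CPM. It rose with MPS1i by 2.42 ± 0.27 and 2.35 ± 0.26 (adjusted p = 1.1e-13 and 5.8e-14).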

How the data were processed

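J2 immunoprecipitated RNA from 12 NCI-H1944 libraries was measured. The authors deposited one table of raw counts for stranded pieces of the genome. Per the submitters' processing notes, STAR, featureCounts, HOMER, cutadapt, Trimmomatic and Trim Galore were used, with the builds GRCh38 and hg38. Versions, and the handling of strands and multi-mapped reads, are not given in the sources used here. Of the 5254113 regions, 46.1% were at 0 in all libraries. Regions were placed in GENCODE 29 genes with bedtools 2.31.1, and 58252 of 58780 gene identifiers matched a symbol. CPM, counts per 1000000 reads, uses the library total times its TMM factor. Counts were tested with edgeR 4.0.16 in R 4.3.3 (glmQLFit and glmQLFTest, TMM factors of the regions, filterByExpr with a minimum count of 10, total of 15 and proportion of 0.7, 1 coefficient per group, all 12 libraries) with Benjamini-Hochberg adjustment over all features tested. The filter used means that a gene low in every group was not tested. The log2 ratio of the 2 kinds of reads was tested with limma 3.58.1, a test added after the data were seen. DESeq2 1.42.0, other scalings, filters, sums and left-out libraries served as alternatives. Tables and figures used Python 3.11.15, pandas 2.3.3, numpy 2.4.6 and matplotlib 3.10.9.

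Genes with per-library values are those called in any comparison, among them TTK. Of member regions, those with the smallest p in a comparison or lying beside them were named, and the rows of CCNA2, NDC80, NUSAP1 and TOP2A were chosen after their values were seen. Of the other lists, the genes named are among the 4 with the smallest p. The members and all lists were chosen with earlier results of these data known. The fits were tested on simulated counts. The dispersion simulated was 0.03, while that of the gene sums was 0.0099. At that setting the gene-sum fit called 32.7% of genes given a log2 change of -1 and 33.3% of those given 1. It called 76.6% at -2, 96% at 2 and 0.0226% of unchanged genes, so it missed many changes. In gene sums without exon-sharing rows, deviations of same-numbered libraries correlated at -0.051 to 0.057 over 15 pairs of groups. Exon-sharing rows were not part of that check. Their share of the reads was higher in replicate 1 than in replicate 2 of every group. The common dispersion of exon-sharing sums was 0.0128, and 0.0090 with the replicate number as a block, so replicate number may matter in those rows.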

Additional observations from a re-analysis of the deposited data

Results flagged for a closer look

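Results are listed here where the change with a treatment differed between SCR and IFNAR1sg cells in a test of that difference. Each value is the log2 change in SCR minus that in IFNAR1sg, and the DMSO libraries of each genotype are shared between the MPS1i and IFNb comparisons. With IFNb, in rows sharing no exon base, the change was lower in SCR for the cyclins CCNB1 (-1.96) and CCNB2 (-1.69), the kinases PLK1 (-2.59) and AURKA (-0.69), the passenger proteins INCENP (-1.32) and BIRC5 (-2.15) and the checkpoint gene BUB1B (-1.02). It was also lower for the kinetochore genes KNL1 (-1.35), CENPE (-1.14) and CENPF (-1.63) and for the motors KIF11 (-1.17), KIF15 (-0.80), KIF4A (-1.29) and KIF2C (-1.07). The same held for TPX2 (-1.83), ASPM (-1.29), KIF23 (-1.42), TOP2A (-0.75) and CDC27 (-1.38). NDC80 alone of the called members had a higher change in SCR, at 1.07. The median of this difference was -0.72 for the 36 tested members and -0.55 for all gene sums. With TMM factors of the gene sums the latter was -0.05, and the difference was called lower in SCR for 12 members and higher for 3. The calls of AURKA, BUB1B, CENPE, INCENP, KIF15, KIF2C and TOP2A were lost with those factors.

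In exon-sharing rows the IFNb change was higher in SCR for CCNA2 (0.57), CDK1 (0.89), TTK (1.06), KIF4A (1.27), ECT2 (0.64), KIF20B (0.76) and CDC27 (0.97). These are 25.0% of the 28 tested members, against 31.0% of all such sums. KIF4A and CDC27 were thus called in both kinds of row, in opposite directions. The calls over all genes leaned the same 2 ways, with 28.9% of gene sums lower in rows sharing no exon base and 31.0% higher in exon-sharing rows. With MPS1i, the change in the ratio of exon-sharing to other reads of KIF4A differed by 1.59. The exon-sharing reads of KIF4A were at 24.5 and 16.2 CPM in SCR with DMSO and 24.5 and 15.3 with MPS1i, and at 22.0 and 29.6 and then 14.2 and 9.66 CPM in IFNAR1sg.

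Some of these differences rest on 1 library. That of PLK1 was not called without SCR DMSO replicate 1 (-1.42), and that of KIF15 not without SCR IFNb replicate 1 (-0.65) or IFNAR1sg DMSO replicate 1 (-0.67). That of AURKA was not called without SCR DMSO replicate 2 (-0.58), IFNAR1sg DMSO replicate 2 (-0.63) or IFNAR1sg IFNb replicate 1 (-0.58), and that of CENPE not without SCR DMSO replicate 2 (-1.04), SCR IFNb replicate 1 (-0.90), IFNAR1sg DMSO replicate 2 (-0.92) or IFNAR1sg IFNb replicate 2 (-0.92). TOP2A was not called without SCR DMSO replicate 1 (-0.63), SCR IFNb replicate 2 (-0.61), IFNAR1sg DMSO replicate 2 (-0.68) or IFNAR1sg IFNb replicate 2 (-0.67). The SCR IFNb libraries have fewer rows with reads and a larger exon-sharing share than the rest, and the part of this in these differences was not tested.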

How the results depend on the processing

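Of 92 calls of members in sums without exon-sharing rows, those that held in all settings were 15 of 21 with MPS1i in SCR, 14 of 25 in IFNAR1sg, 10 of 26 with IFNb in SCR and 9 of 20 in the IFNb difference between genotypes. All 92 held with the replicate block (replicate number as a term), which changed no such call, with DESeq2 size factors, with only the compared groups and with rows in more than 1 gene counted. With the DESeq2 Wald test 66 held, 22 lost the call and 4 turned. The 4 were, with IFNb in SCR, KIF14 (0.020), ECT2 (0.20), ANLN (0.086) and AURKA (0.082). This test took its own size factors from the tested sums, so the scaling changed along with the test. It called 17 members with IFNb in SCR and 12 in the IFNb difference. With TMM factors of the gene sums 76 held, 13 lost the call and 3 turned, namely ECT2 (0.14), ANLN (0.014) and AURKA (0.016) with IFNb in SCR. With exon-sharing rows kept, 67 held, 14 lost the call and 11 turned. Keeping exon-sharing rows, with or without rows in more than 1 gene, turned ECT2 (0.14) with MPS1i in SCR, CENPE (-0.060) and CCNA2 (-0.28) in IFNAR1sg, KIF2C (0.47), ECT2 (0.80), TPX2 (0.32) and AURKA (0.44) with IFNb in SCR, and KIF2C (0.32), TOP2A (0.15), TPX2 (0.035) and AURKA (0.10) in the IFNb difference. The cause of these changes was not tested. Leaving out 1 library gave 17 to 21 calls with MPS1i in SCR, 17 to 26 in IFNAR1sg, 24 to 26 with IFNb in SCR, 17 to 20 in the IFNb difference and 0 to 0 in the other comparisons.

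For exon-sharing rows alone, MPS1i in SCR gave 9 calls with no TMM factors, 5 with the replicate block and 9 with the DESeq2 Wald test. IFNb in SCR gave 4 with the DESeq2 Wald test and 11 with only the compared groups. IFNb in IFNAR1sg gave 5 with the block, 1 with the DESeq2 Wald test, 3 with only the compared groups and 1 with no filter. The MPS1i difference gave 1 with the block and 2 with no filter, and the IFNb difference 2 with no TMM factors and 3 with the DESeq2 Wald test. Leaving out 1 library gave 1 to 3, 5 to 17, 14 to 20 and 0 to 2 calls in the MPS1i comparisons of SCR and IFNAR1sg and the IFNb comparisons of SCR and IFNAR1sg, and 0 to 2 and 4 to 11 in the differences.

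For single rows the DESeq2 Wald test gave 41, 56 and 67 calls with MPS1i in SCR, MPS1i in IFNAR1sg and IFNb in SCR, and 26 in the IFNb difference. With no filter these were 39, 43, 57 and 19. IFNb in IFNAR1sg gave 0 with no TMM factors, DESeq2 size factors, no filter or without both SCR IFNb libraries, and 3 with the block, which gave 1 in the MPS1i difference. Leaving out 1 library gave 27 to 72, 39 to 92, 58 to 111 and 0 to 2 calls in those 4 comparisons, 0 to 3 in the MPS1i difference and 23 to 45 in the IFNb difference. Genes of few reads, such as PLK1 and CCNA2, have the widest errors at this depth.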
